A study of Petunia x hybrida with 32 samples.

Results

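Of the 4767 leaf transcripts with RPKM values in this study of petunia under salt, 83 were described as receptor-like or other protein kinases. They were taken as every transcript whose leading description holds "protein kinase", "receptor kinase" or "receptor-like kinase", leaving out the transcripts of components comp24211_c0 and comp14467_c0. A component is a set of assembled transcripts that share sequence, usually read as a gene with its isoforms, and the 83 transcripts came from 57 components. Descriptions were given to 1434 of the 4767 transcripts, so kinases among the undescribed ones were not analysed here. The rule itself reads descriptions and no measured value, but how the 4767 were chosen from the far larger assembly of the study is not given. Kinases outside the 4767 were not analysed, and shares of all transcripts below refer to this set alone.

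Leaves came from Petunia x hybrida Mitchell Diploid, a doubled-haploid laboratory line, grown in hydroponic solution. The groups were plants in solution with 150 mM NaCl for 6 h (STR_06h) or 24 h (STR_24h) and plants without added NaCl at 0 h (CTR_00h), 6 h (CTR_06h) and 24 h (CTR_24h). Each group had 3 biological replicates, and each replicate pooled the youngest fully expanded leaves of 3 plants, so the spread between single plants is not seen. By the paper's description, set groups of plants within a treatment were sampled over time, so the times of a treatment share plants. The main fit treats all replicates as independent. Whole leaves were sampled, and a fall in a transcript through fewer cells of a type cannot be told apart from a fall through less RNA per cell. RPKM is the read number scaled by transcript length and by the mapped reads of the library, and the mean of the libraries of a replicate is its value in all that follows.

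Receptor-like kinases are the largest family of plant cell surface receptors. An outer domain, built for example of leucine-rich repeats (LRR), lectin or malectin modules, binds a peptide, sugar or cell wall component, and an inner kinase domain passes the signal on by phosphorylation. Inside the cell, mitogen-activated protein kinase (MAPK) cascades relay such signals, SnRK2 kinases act in the response to the drought hormone abscisic acid, and kinases that bind calcineurin B-like calcium sensors (CIPK) act in ion homeostasis, the Arabidopsis salt tolerance kinase SOS2 being the best known. The functions given below are those of the Arabidopsis genes that the descriptions name, unless another species is stated, and they are background to these petunia transcripts.

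By their descriptions, 56 of the 83 transcripts (36 components) were receptor-like kinases and 27 (21 components) were not. The receptor-like ones were 25 LRR kinases, 10 other receptor-like kinases, 9 lectin and S-domain kinases, 6 wall-associated and malectin-type kinases and 6 proline-rich extensin-like receptor kinases (PERK). The others were 6 members of MAPK cascades, 3 calcium-regulated kinases, 1 SnRK kinase and 17 further protein kinases. One of the 17, the p21-activated protein kinase-interacting protein 1-like transcript comp9996_c0_seq1, carries the phrase of the rule without being a kinase by its name. The gene ontology annotation, which the rule did not use, gave kinase activity to 71 of the 83 transcripts, receptor activity to 19 and a plasma membrane location to 19.

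Most of these kinases were weakly expressed. The mean RPKM over all 15 replicates had a median of 2.23 among the 83 kinases, against 4.48 among all 4767 transcripts. It lay below 1 in 10 of them, from 1 to below 5 in 54, and at 10 or more in 11. The highest was the perk1-like kinase comp13203_c0_seq1 with a mean of 72.2 RPKM. After it came the perk9-like transcripts comp13272_c0_seq1 (29.2) and comp13272_c0_seq3 (18.2), the srk2e-like kinase comp14103_c0_seq1 (20.8) and the receptor-like kinase at4g34500-like comp13876_c1_seq1 (16.7). The lowest, the atr-like kinase comp25810_c0_seq8 (0.338 RPKM), was the one member that did not reach an RPKM of 1 in 3 replicates and was not tested, so 82 members were tested. Of these, 3 reached that minimum through 1 group alone, both b120-like transcripts through STR_24h leaves and comp18123_c0_seq1 through CTR_00h leaves.

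The question of the design is which transcripts differ between salt-treated leaves and control leaves of the same hour. In STR_06h leaves, 20 of the 82 kinases passed an adjusted p of 0.05 (limma, adjusted over all 4658 tested transcripts), 3 higher and 17 lower than in CTR_06h leaves. That is 24.4% of the kinases, beside 34.5% of all tested transcripts, of which 17.3% were higher and 17.2% lower. The median log2 fold change of (RPKM + 1) was -0.30 among the kinases and -0.07 among all tested transcripts. In STR_24h leaves, 25 of the 82 passed, 9 higher and 16 lower than in CTR_24h leaves. This was 30.5% of the kinases beside 46.5% of all tested transcripts (24.2% higher and 22.3% lower), and the medians were -0.11 and 0.01. At the stricter limits of an adjusted p of 0.001 and a log2 change of 1 in size, the kinases held 1 call at 6 h (all transcripts 4.98%) and 6 at 24 h (14.5%). Salt thus called a smaller share of the kinases than of all transcripts at both hours. The 2 sets differ in level (median of the mean RPKM 2.23 and 4.48), and the log2 scale of (RPKM + 1) understates changes of low transcripts. The shares were not compared at like levels, so they do not show that kinases respond less to salt. Most calls at 6 h lay below 0, but without CTR_06h replicate 2 the calls were 3 higher and 10 lower.

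**Figure D1:**
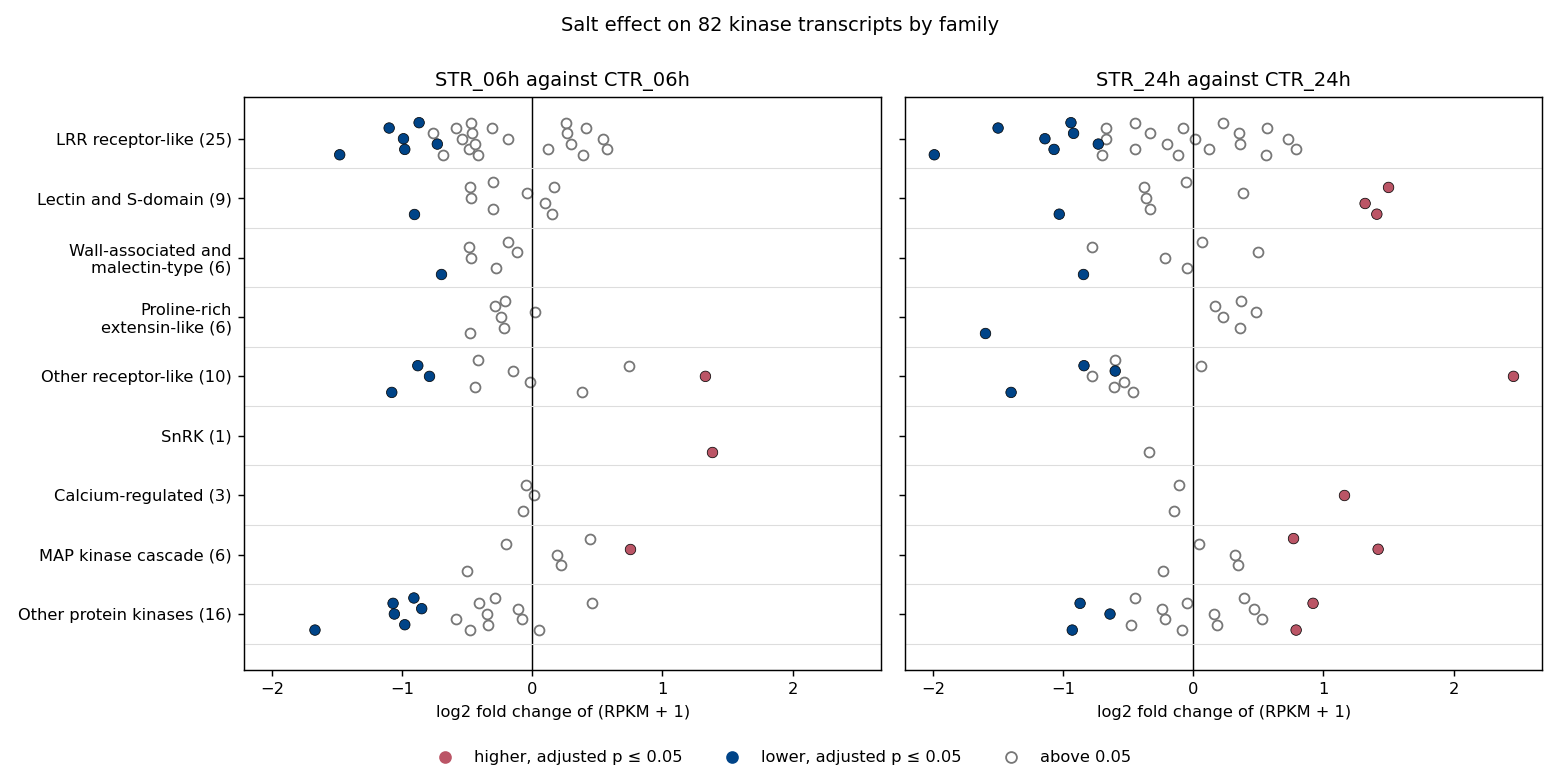
Log2 fold change of (RPKM + 1) of the 82 tested kinases in STR_06h against CTR_06h leaves (left) and STR_24h against CTR_24h leaves (right), 1 point per transcript, with families in rows and the number tested in brackets. Filled points passed an adjusted p of 0.05, and at 6 h 17 of the 20 filled points lie left of 0, while at 24 h 9 of the 25 lie to its right.

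Only some of these calls stood in each of the primer sets used for sequencing. Each RNA had been indexed once with HPLC-purified and once with non-HPLC primers, and the fit was repeated in each primer set. The HPLC libraries alone called 13 kinases at 6 h (2 higher and 11 lower) and 13 at 24 h (7 higher and 6 lower). The non-HPLC libraries alone, which lack CTR_06h replicate 2 and STR_24h replicate 2, called 5 at 6 h (3 higher and 2 lower) and 15 at 24 h (6 higher and 9 lower). The excess of falls at 6 h was not seen there, but the primers and the missing CTR_06h replicate cannot be told apart. The direction was the same in both primer sets for 19 of the 20 calls at 6 h and for all 25 calls at 24 h. Called in each set alone were 3 kinases at 6 h, the srk2e-like, at4g34500-like and at1g68400-like (comp14717_c0_seq1) transcripts, and 8 at 24 h. The 8 were the at4g34500-like, b120-like (both transcripts), at4g27290-like, mitogen-activated protein kinase kinase 6-like (comp21793_c0_seq3), erl1-like, perk1-like (comp13203_c0_seq1) and at1g67000-like transcripts.

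Among the 25 LRR receptor-like kinases, 6 were lower in STR_06h leaves, 19 did not pass and none was higher, beside 17.2% lower and 17.3% higher among all tested transcripts. At 24 h 7 were lower in STR_24h leaves, 18 did not pass and none was higher, beside 22.3% lower and 24.2% higher. The family was not tested against other transcripts. The median log2 fold change was -0.46 at 6 h and -0.33 at 24 h, beside -0.07 and 0.01 in all tested transcripts. The 25 transcripts come from 13 components. In sign, 17 lay below 0 and 8 above at 6 h, and 16 below and 9 above at 24 h. All 4 transcripts of the largest component, the at1g53430-like comp24425_c0, were positive at both hours without a call, with log2 fold changes of 0.35 to 0.79 at 24 h (lowest adjusted p = 0.0582). The kinase with the lowest log2 fold change of (RPKM + 1) at 24 h was the erl1-like transcript comp15842_c0_seq2, named after ERECTA-LIKE 1, a receptor that with ERECTA sets the spacing of stomata. It had 2.52, 3.44 and 4.66 RPKM in STR_24h leaves, against 19.4, 15.7 and 15.4 RPKM in CTR_24h leaves. The groups did not overlap, the control mean was 4.76 times the salt mean, and the log2 fold change was -1.99 ± 0.24 (SE, adjusted p = 1.81e-05). At 6 h its values were 6.32, 8.62 and 5.53 RPKM in STR_06h leaves, against 9.81, 7.27 and 6.68 RPKM in CTR_06h leaves, which overlap (log2 fold change -0.19, adjusted p = 0.539). Its CTR_24h leaves also stood above its CTR_00h leaves, which had 6.17, 5.31 and 5.96 RPKM (log2 fold change 1.38 ± 0.24, adjusted p = 0.000711), so STR_24h leaves were lower than leaves of either control time.

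One of the 2 transcripts of the at1g68400-like LRR kinase of component comp14717_c0 was lower with salt at 6 h. It was comp14717_c0_seq1, which had 1.39, 0.82 and 1.41 RPKM in STR_06h leaves, against 6.06, 6.55 and 3.21 RPKM in CTR_06h leaves. The groups were apart, with a log2 fold change of -1.48 ± 0.33 (adjusted p = 0.00424). At 24 h the values were 17.2, 10.8 and 15.9 RPKM in STR_24h leaves and 18.1, 20.6 and 7.74 RPKM in CTR_24h leaves, a log2 fold change of 0.01 with a 95% interval of -0.70 to 0.71. For comp14717_c0_seq1, both salt and control leaves at 6 h lay far below the 32.3, 37.8 and 44.5 RPKM of CTR_00h leaves. The sister comp14717_c0_seq2 was not called with salt, its replicates overlapping at 6 h (log2 fold change -0.42, adjusted p = 0.475).

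Of the other LRR calls, the at5g49770-like component comp23743_c0 had negative changes in both transcripts at both hours, with 1 transcript called at each. The transcript comp23743_c0_seq2 had 0.51, 0.57 and 0.575 RPKM in STR_24h leaves, against 2.41, 3.79 and 4.15 RPKM in CTR_24h leaves (log2 fold change -1.5 ± 0.36, adjusted p = 0.00375), with a control mean 6.25 times the salt mean. Its transcript comp23743_c0_seq1 passed at 6 h (log2 fold change -1.10, adjusted p = 0.0241). That call was lost without CTR_06h replicate 2 or 3 or STR_06h replicate 2 or 3, with adjusted p of up to 0.0923. The values not called were -0.54 for comp23743_c0_seq2 at 6 h (adjusted p = 0.25) and -0.70 for comp23743_c0_seq1 at 24 h (adjusted p = 0.107), and the change between the hours passed for neither (adjusted p = 0.164 and 0.566). The at4g26540-like kinase comp10042_c0_seq1 was lower at both hours, with 0.805, 0.785 and 0.99 RPKM in STR_06h leaves, against 2.62, 3.05 and 1.64 RPKM in CTR_06h leaves, and 1.22, 0.41 and 0.875 RPKM in STR_24h leaves, against 3.34, 1.98 and 3.21 RPKM in CTR_24h leaves. Its log2 fold changes were -0.87 (adjusted p = 0.0199, lost without CTR_06h replicate 2 or STR_06h replicate 1 or 2, up to 0.0835) and -1.07 ± 0.26 (adjusted p = 0.00395), and in the non-HPLC libraries alone the value at 6 h was 0.31. The gso1-like transcripts comp23871_c0_seq5 and comp23871_c0_seq2, named after a receptor that seals the root Casparian strip, were lower in STR_06h leaves with log2 fold changes of -0.98 and -0.99 (adjusted p = 0.0102 and 0.0152, the second lost without CTR_06h replicate 2 or STR_06h replicate 1 or 3, up to 0.0606). Both transcripts of the at5g15730-like component comp18694_c0 were lower in STR_24h leaves, with log2 fold changes of -0.94 ± 0.25 (comp18694_c0_seq2, adjusted p = 0.00647) and -0.73 (comp18694_c0_seq1, adjusted p = 0.026, lost without 4 of the 6 replicates compared, up to 0.0943). The imk2-like transcript comp26186_c0_seq3, described as probably inactive, was called lower at both hours. Its log2 fold change was -0.73 at 6 h, lost without CTR_06h replicate 1 or 2 or STR_06h replicate 2 or 3 (adjusted p up to 0.106). At 24 h it was -0.92, kept without each replicate in turn (adjusted p up to 0.0251) but lost in the HPLC libraries alone.

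Of the 9 lectin and S-domain receptor-like kinases 3 were higher at 24 h, beside 24.2% of all tested transcripts, and 2 of the 3 belong to 1 component. S-domain or G-type lectin kinases carry a mannose-binding lectin module outside the cell, and relatives in Arabidopsis act in immunity and in the response to abscisic acid. Both transcripts of the b120-like component comp18591_c0 were near 0 outside the STR_24h group. The transcript comp18591_c0_seq2 had 2.33, 2.19 and 1.99 RPKM in STR_24h leaves, against 0, 0 and 0.42 RPKM in CTR_24h leaves, and comp18591_c0_seq1 had 2.13, 2.10 and 1.44 RPKM in STR_24h leaves, against 0, 0 and 0.265 RPKM in CTR_24h leaves. At 6 h and 0 h no replicate of either transcript exceeded 0.355 RPKM, so the STR_24h leaves stood apart from every other group. They entered the test only through the STR_24h leaves, where they were high, so their calls are bound to this choice. With no minimum for any transcript, the log2 fold changes of (RPKM + 1) at 24 h were 1.5 (adjusted p = 8.66e-06) and 1.41 (adjusted p = 9.68e-06), and the added 1 makes them understate changes of such low transcripts.

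The at4g27290-like S-domain kinase comp8075_c0_seq1 had 1.98, 2.81 and 3.32 RPKM in STR_24h leaves, against 0.245, 0.70 and 0.485 RPKM in CTR_24h leaves (log2 fold change 1.32 ± 0.22, adjusted p = 0.000274). The STR_24h mean was 5.67 times that of CTR_24h leaves, and close to the 1.90, 1.88 and 2.65 RPKM of CTR_00h leaves. The sd2-5-like kinase comp24250_c0_seq1 went the other way, with 2.29, 2.65 and 2.73 RPKM in STR_24h leaves, against 6.14, 5.42 and 7.32 RPKM in CTR_24h leaves (log2 fold change -1.03 ± 0.22, adjusted p = 0.00151). At 6 h the only call of the family was the L-type lectin kinase comp21873_c0_seq1, with 0.14, 0.48 and 0.515 RPKM in STR_06h leaves, against 1.39, 1.47 and 1.85 RPKM in CTR_06h leaves (log2 fold change -0.91 ± 0.22, adjusted p = 0.00728).

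Of the 6 wall-associated and malectin-type kinases, which include homologues of FERONIA and THESEUS1, sensors of wall integrity and growth, 1 was lower at 6 h and 1 at 24 h, near the shares of all tested transcripts (17.2% and 22.3%). The feronia-like transcript comp14737_c0_seq2 had 0.405, 1.5 and 0.925 RPKM in STR_06h leaves, against 1.45, 1.77 and 3.29 RPKM in CTR_06h leaves, which overlap (log2 fold change -0.70, adjusted p = 0.0404). The call was lost without CTR_06h replicate 2 or 3 or STR_06h replicate 1 or 3 (adjusted p up to 0.172). The wall-associated receptor kinase 2-like transcript comp25029_c0_seq6 had 1.27, 1.92 and 0.715 RPKM in STR_24h leaves, against 2.19, 3.21 and 3.96 RPKM in CTR_24h leaves (log2 fold change -0.85, adjusted p = 0.0387, up to 0.151 without CTR_24h replicate 2 or 3 or STR_24h replicate 1 or 3).

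The proline-rich outer domain of the PERK family resembles a wall protein. Of its 6 transcripts 1 was called with salt, lower at 24 h (all tested transcripts 22.3%), and it was the most abundant of all the kinases. The perk1-like transcript comp13203_c0_seq1 had 25.6, 25 and 28.1 RPKM in STR_24h leaves, against 120, 115 and 38.8 RPKM in CTR_24h leaves. The salt values were tightly grouped and the lowest control replicate still lay above them, with a log2 fold change of -1.60 ± 0.35 (adjusted p = 0.00198). At 6 h the values were 73.1, 68.0 and 73.7 RPKM in STR_06h leaves and 94.7, 59.1 and 62.3 RPKM in CTR_06h leaves (log2 fold change 0.02, 95% interval -0.73 to 0.77).

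The 10 other receptor-like kinases included the kinase with the highest log2 fold change of (RPKM + 1) at 24 h, the at4g34500-like transcript comp13876_c1_seq1. It had 12, 7.64 and 13 RPKM in STR_06h leaves, against 3.60, 3.55 and 3.69 RPKM in CTR_06h leaves, and 52.7, 64.5 and 45.4 RPKM in STR_24h leaves, against 7.03, 11.4 and 8.82 RPKM in CTR_24h leaves. Salt and control replicates were apart at both hours, with means 3.01 and 5.96 times those of the control. The log2 fold changes were 1.33 ± 0.32 (adjusted p = 0.0059) and 2.46 ± 0.32 (adjusted p = 3.18e-05), and their difference of 1.12 did not pass (adjusted p = 0.0662). It was the 1 kinase called higher at both hours, and the HPLC and non-HPLC libraries gave 2.42 and 2.40 at 24 h when fitted apart. The at1g67000-like kinase comp16005_c0_seq1 had 1.29, 3.07 and 2.99 RPKM in STR_24h leaves, against 8.30, 9.81 and 5.87 RPKM in CTR_24h leaves (log2 fold change -1.40 ± 0.39, adjusted p = 0.00839). Its replicates at 6 h spread widely, with 25.2, 6.92 and 13.5 RPKM in STR_06h leaves and 16.3, 8.78 and 17.6 RPKM in CTR_06h leaves. All 3 transcripts of the at1g49730-like component comp24175_c0 were lower in STR_06h leaves, with log2 fold changes of -1.08 ± 0.28 (comp24175_c0_seq1, adjusted p = 0.00991), -0.79 (comp24175_c0_seq2, adjusted p = 0.0146) and -0.88 (comp24175_c0_seq3, adjusted p = 0.0275). The call of comp24175_c0_seq2 was lost without CTR_06h replicate 2 or STR_06h replicate 2 (up to 0.07) and that of comp24175_c0_seq3 also without CTR_06h replicate 1 (up to 0.118).

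**Figure D2:**
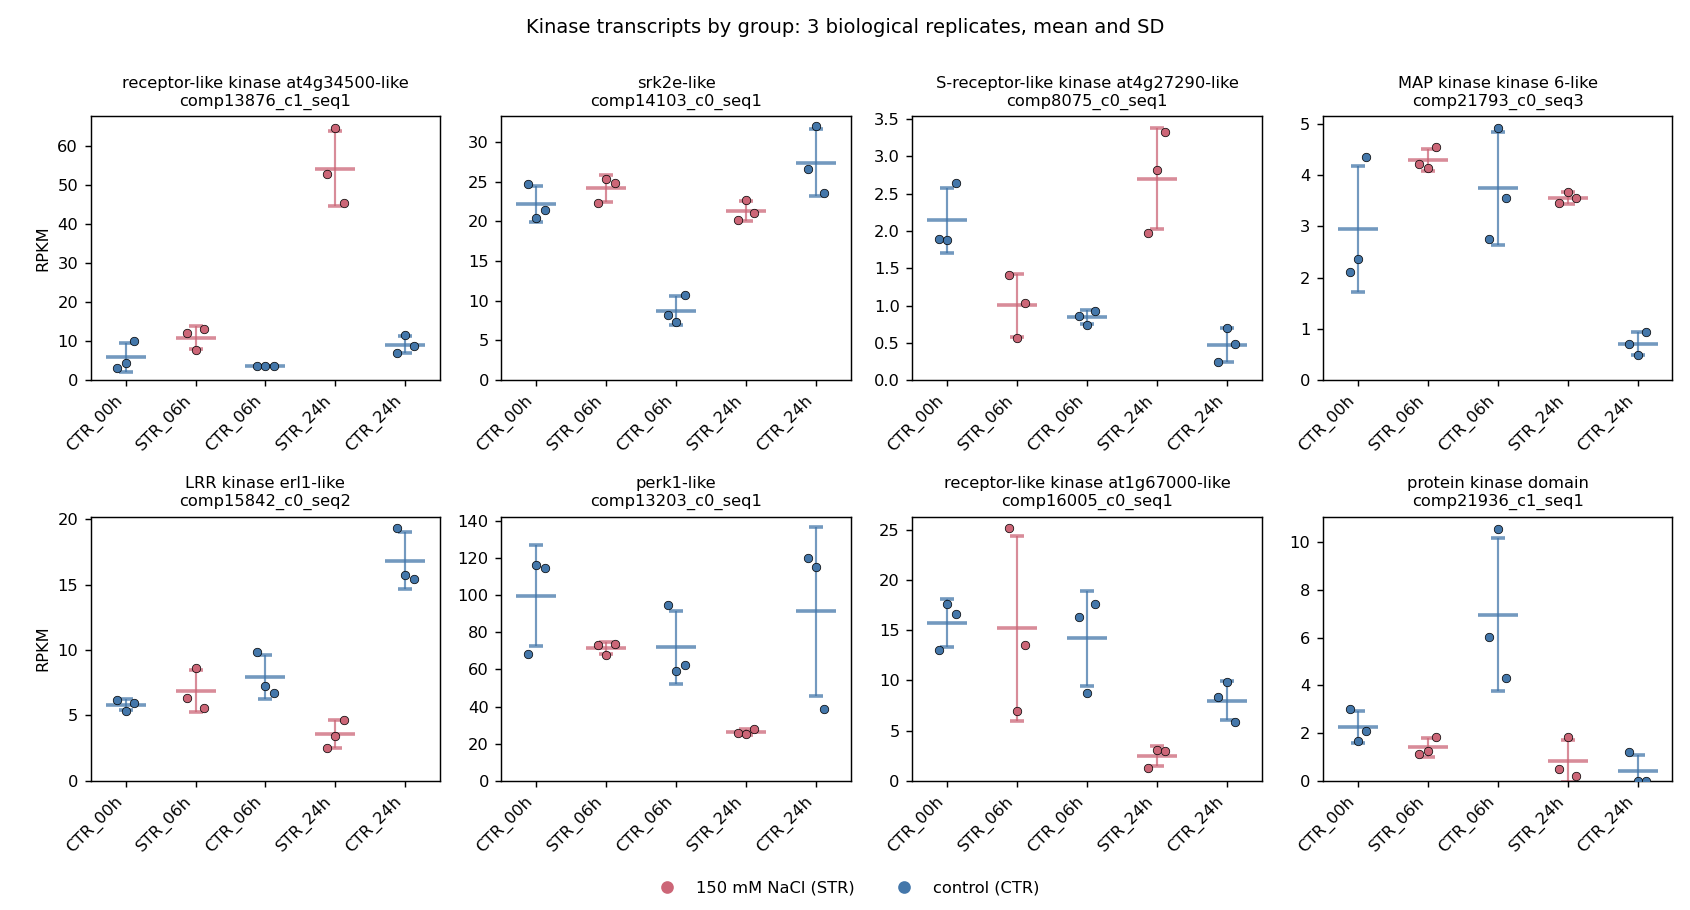
RPKM of 8 kinase transcripts in CTR_00h, STR_06h, CTR_06h, STR_24h and CTR_24h leaves, with 1 point per biological replicate and the mean and SD over 3 replicates. The at4g34500-like values of 45.4 to 64.5 RPKM in STR_24h leaves lie above all others of that transcript, and the srk2e-like values of CTR_06h leaves (7.38 to 10.8 RPKM) lie below those of the 4 other groups.

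The srk2e-like kinase comp14103_c0_seq1 gave the 1 call at 6 h that passed the stricter limits. SRK2E, also called OST1, is the SnRK2 kinase that abscisic acid activates in guard cells to close stomata. It had 22.3, 25.4 and 24.9 RPKM in STR_06h leaves, against 8.15, 7.38 and 10.8 RPKM in CTR_06h leaves (log2 fold change 1.38 ± 0.20, adjusted p = 0.000217), and 20.2, 22.7 and 21.1 RPKM in STR_24h leaves, against 26.6, 32.0 and 23.6 RPKM in CTR_24h leaves (log2 fold change -0.34, adjusted p = 0.17). CTR_00h leaves had 24.7, 20.4 and 21.4 RPKM. The level thus stayed between 20.2 and 32.0 RPKM in every group but CTR_06h, where it was 2.53 times lower than in CTR_00h leaves by the means (log2 fold change -1.26 ± 0.20, adjusted p = 7.64e-05), and salt-treated leaves at 6 h did not show that low. The guard cell list held the slac1-like anion channel and an akt2 3-like potassium channel, the second listed as a potassium channel without guard cells in its description. The slac1-like transcript had 4.61, 4.09 and 3.88 RPKM in STR_06h leaves, against 3.62, 6.05 and 5.76 RPKM in CTR_06h leaves (log2 fold change -0.22, adjusted p = 0.451). Its CTR_00h leaves had 15.8, 14.2 and 15.7 RPKM. The akt2 3-like transcript was lower in STR_06h leaves (log2 fold change -0.90, adjusted p = 0.0443). Neither of the 2 was at 0 in all replicates of a group, and the part of guard cells in the srk2e-like values was not tested.

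Among the 3 calcium-regulated kinases, the cbl-interacting kinase 1-like transcript comp9456_c0_seq1 was called at 24 h, with 7.68, 5.04 and 6.98 RPKM in STR_24h leaves, against 3.73, 3.62 and 0.715 RPKM in CTR_24h leaves (log2 fold change 1.16 ± 0.41, adjusted p = 0.0296). The call was lost without CTR_24h replicate 3 or STR_24h replicate 1 or 3 (adjusted p up to 0.152). The other 2, transcripts of a cbl-interacting kinase 25-like component (comp18123_c0), were at 0 to 2.13 RPKM at 6 h and 24 h and did not pass.

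In the MAPK cascades 1 of 6 transcripts was higher at 6 h (all tested transcripts 17.3%), 2 were higher at 24 h (24.2%) and none was lower. The 2 belong to component comp21793_c0. The mitogen-activated protein kinase kinase 6-like transcript comp21793_c0_seq3, whose Arabidopsis counterpart acts in the formation of the new wall between dividing cells, had 3.45, 3.67 and 3.54 RPKM in STR_24h leaves, against 0.70, 0.49 and 0.945 RPKM in CTR_24h leaves (log2 fold change 1.42 ± 0.25, adjusted p = 0.000395). Salt values were 5.0 times those of the control by the means. Its sister comp21793_c0_seq2 had 2.97, 3.10 and 3.96 RPKM in STR_24h leaves, against 0.61, 2.29 and 2.10 RPKM in CTR_24h leaves (log2 fold change 0.77, adjusted p = 0.0293, lost without CTR_24h replicate 1 or STR_24h replicate 2 or 3, up to 0.165). The mitogen-activated protein kinase 9-like transcript comp24929_c0_seq2, whose counterpart acts in guard cells, had 7.08, 6.94 and 6.52 RPKM in STR_06h leaves, against 3.64, 3.31 and 4.03 RPKM in CTR_06h leaves (log2 fold change 0.75 ± 0.19, adjusted p = 0.00913). The ctr1-like kinase comp23973_c0_seq12, named after the brake on ethylene signalling, did not pass at either hour.

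Of the 16 further protein kinases tested, 6 were lower at 6 h (all tested transcripts 17.2%), and at 24 h 3 were lower (22.3%) and 2 higher (24.2%). The transcript described only by a protein kinase domain, comp21936_c1_seq1, had 1.09, 1.25 and 1.84 RPKM in STR_06h leaves, against 6.03, 10.5 and 4.33 RPKM in CTR_06h leaves (log2 fold change -1.67 ± 0.38, adjusted p = 0.00442). NEK kinases, which act on microtubules and directional cell growth, gave 3 of the 6 falls. The nek5-like transcript comp25769_c0_seq1 had 2.42, 1.08 and 1.51 RPKM in STR_06h leaves, against 2.92, 5.47 and 5.38 RPKM in CTR_06h leaves (log2 fold change -1.06 ± 0.25, adjusted p = 0.00618). The nek6-like transcript comp17156_c0_seq2 had 1.84, 1.10 and 1.81 RPKM in STR_06h leaves, against 2.94, 5.81 and 4.76 RPKM in CTR_06h leaves (log2 fold change -1.07 ± 0.27, adjusted p = 0.00873). For the nek5-like transcript comp25769_c0_seq3 the log2 fold change was -0.91 (adjusted p = 0.0145, lost without CTR_06h replicate 2 or 3 or STR_06h replicate 2, up to 0.0644).

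The p21-activated protein kinase-interacting protein 1-like transcript comp9996_c0_seq1 was the 1 member called in opposite directions at the 2 hours. It had 2.40, 3.50 and 2.33 RPKM in STR_06h leaves, against 8.54, 6.82 and 4.21 RPKM in CTR_06h leaves, and 1.86, 5.85 and 2.67 RPKM in STR_24h leaves, against 1.46, 1.36 and 0.83 RPKM in CTR_24h leaves. The groups did not overlap at either hour, with log2 fold changes of -0.98 (adjusted p = 0.0258) and 0.92 (adjusted p = 0.0253). Both calls depended on single replicates, the first being lost without CTR_06h replicate 1 or 2 or STR_06h replicate 1 or 3 (up to 0.0822) and the second without CTR_24h replicate 3 or STR_24h replicate 2 (up to 0.138). In human cells the protein of this name binds a p21-activated kinase.

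Whether the salt effect itself changed between the hours was tested as the difference of the 2 log2 fold changes, 24 h minus 6 h. It passed for 16 of the 82 kinases (19.5%, beside 32.3% of all tested transcripts), 10 with a higher (all transcripts 17.1%) and 6 with a lower (15.2%) effect at 24 h. The medians over all tested transcripts themselves gave a difference of 0.15 in this comparison. With all replicates brought to the same median, which removes that difference, 7 kinases were higher and 9 lower. The differences furthest below 0 were those of the erl1-like (-1.80 ± 0.34, adjusted p = 0.0017), srk2e-like (-1.72 ± 0.28, adjusted p = 0.000625), perk1-like (-1.62 ± 0.50, adjusted p = 0.0235) and at5g20050-like (-1.52 ± 0.45, adjusted p = 0.019) transcripts. The last, the receptor-like kinase comp18539_c0_seq2, passed in neither salt comparison alone, with 2.89, 1.17 and 1.71 RPKM in STR_06h leaves, against 0.72, 0.77 and 0.61 RPKM in CTR_06h leaves, and 0.11, 0.49 and 0.245 RPKM in STR_24h leaves, against 2.10, 1.94 and 0.155 RPKM in CTR_24h leaves. The perk1-like difference was lost without CTR_06h replicate 2 or 3 or CTR_24h replicate 1 or 2 (up to 0.06). Furthest above 0 were comp21936_c1_seq1 (2.06 ± 0.54, adjusted p = 0.0111), comp9996_c0_seq1 (1.90 ± 0.44, adjusted p = 0.00564), comp14717_c0_seq1 (1.48 ± 0.47, adjusted p = 0.0273) and the b120-like comp18591_c0_seq2 (1.34 ± 0.24, adjusted p = 0.00123). Of these, comp14717_c0_seq1 lost its call without CTR_06h replicate 2, CTR_24h replicate 3, STR_06h replicate 2 or STR_24h replicate 1 or 3 (up to 0.0677). In the non-HPLC libraries alone 3 differences passed and in the HPLC libraries alone 12.

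**Figure D3:**
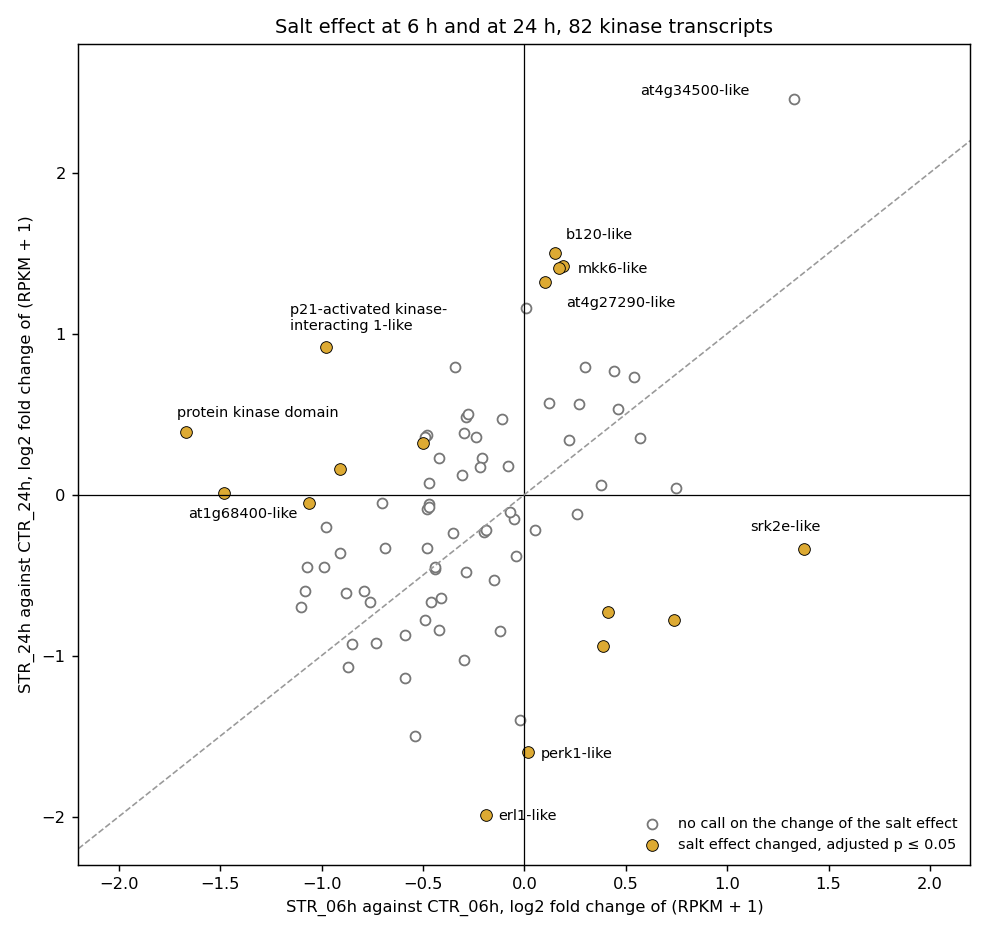
Log2 fold change of (RPKM + 1) in STR_06h against CTR_06h leaves (x axis) and in STR_24h against CTR_24h leaves (y axis) for the 82 tested kinases, 1 point per transcript. Filled points are the 16 whose salt effect changed between the hours at an adjusted p of 0.05, the dashed line marks equal effects, and the at4g34500-like kinase (1.33 and 2.46) lies highest.

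Transcripts of the same component share reads, which the authors' estimation divides among them, so their separate values are less certain than their sum. There were 20 components with 2 or more kinase transcripts, 46 transcripts in all. At 6 h the salt effect had the same sign in all transcripts of 18 of the 20 components, and at 24 h of 17. All transcripts passed in 2 of the components at 6 h and in 3 at 24 h, and some but not all in 7 and 4. With RPKM summed per component, 16 kinase components were called at 6 h (2 higher and 14 lower) and 23 at 24 h (8 higher and 15 lower).

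The transcripts of the mitogen-activated protein kinase 9-like component comp24929_c0 moved apart over time. The transcript comp24929_c0_seq2 had 20.0, 18.1 and 22.2 RPKM in CTR_24h leaves, against 11.4, 13.7 and 16.1 RPKM in CTR_00h leaves (log2 fold change 0.53, adjusted p = 0.0427, lost without CTR_00h replicate 1 or 2 or any CTR_24h replicate, up to 0.148, and 0.0539 with pools of plants as a block). Its sister comp24929_c0_seq3 had 11.8, 13.4 and 10.8 RPKM in CTR_24h leaves, against 35.7, 31.2 and 23.7 RPKM in CTR_00h leaves (log2 fold change -1.25 ± 0.21, adjusted p = 0.000616). It was the 1 component among the 20 whose transcripts were called in opposite directions in any of the comparisons. At 6 h seq2 stood at 6.52 to 7.08 RPKM in STR_06h leaves, against 3.31 to 4.03 RPKM in CTR_06h leaves, whereas seq3 stood at 5.28 to 6.76 RPKM in STR_06h leaves, against 7.31 to 9.88 RPKM in CTR_06h leaves (log2 fold change -0.50, adjusted p = 0.0757). A further transcript of the component, comp24929_c0_seq4, is described as a map kinase and lies outside the rule.

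**Figure D4:**
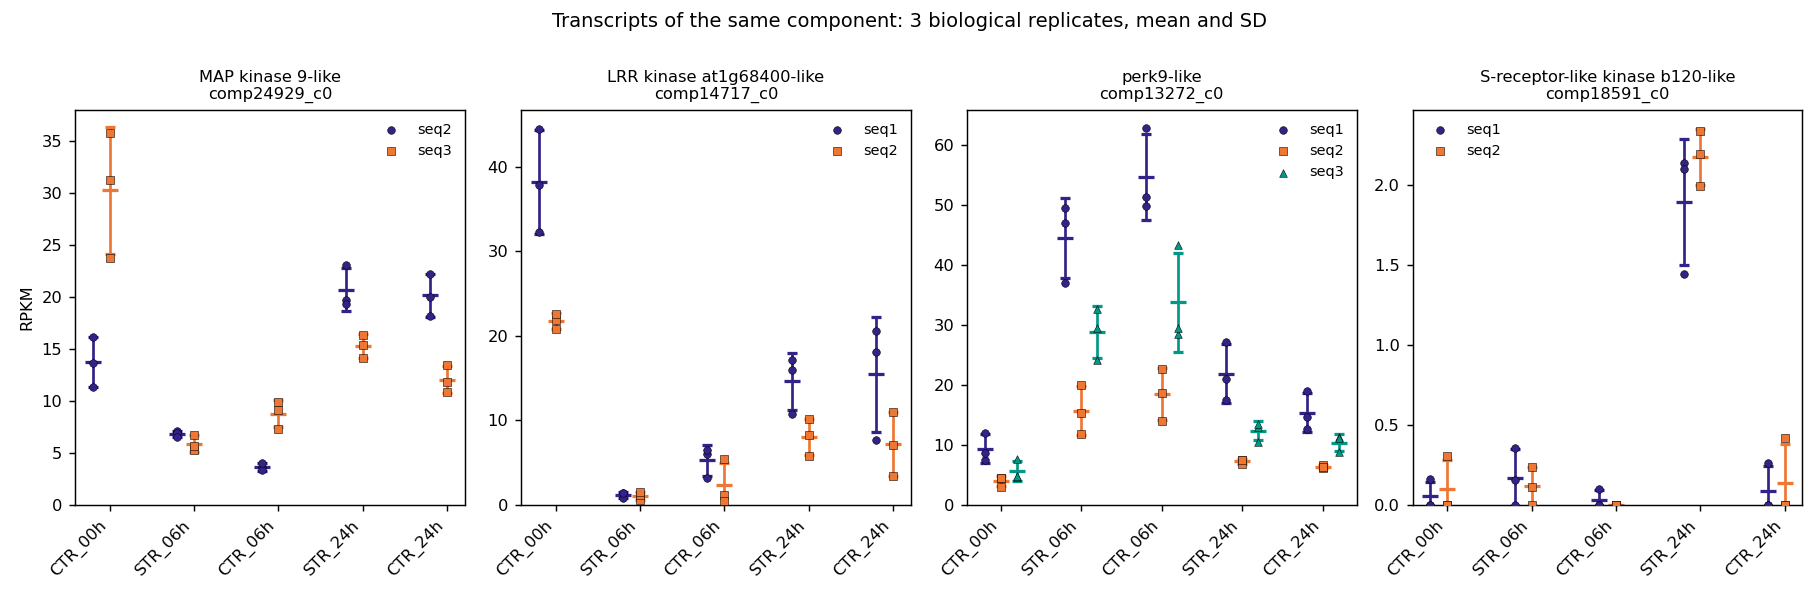
RPKM of the transcripts of 4 components (mitogen-activated protein kinase 9-like, at1g68400-like, perk9-like and b120-like) in the 5 groups, with 1 point per biological replicate, the mean and SD over 3 replicates, and colours and shapes for the transcripts. The transcripts of the perk9-like and b120-like components move together, and in the mitogen-activated protein kinase 9-like component seq3 is the higher one in CTR_00h leaves and seq2 in CTR_24h leaves.

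More kinases were called between the times of the control leaves than with salt. In CTR_06h against CTR_00h leaves 37 of the 82 kinases passed (45.1%, beside 57.1% of all tested transcripts), 14 higher (all transcripts 29.0%) and 23 lower (28.1%), with medians of 0.01 among the kinases and -0.08 among all tested transcripts. At the stricter limits 8 were higher and 10 lower, beside 25.9% of all tested transcripts in either direction. In CTR_24h against CTR_00h leaves 36 passed (43.9%, beside 38.3%), 5 higher (all transcripts 16.2%) and 31 lower (22.1%), with medians of -0.56 and -0.08. The stricter limits left 1 higher and 3 lower (all transcripts 6.85%). The medians over all tested transcripts themselves differed by -0.20 in this comparison (CTR_24h minus CTR_00h leaves). With all replicates brought to the same median, which removes that difference, 7 kinases were higher and 23 lower. Both comparisons share the CTR_00h leaves, and a kinase high in those 3 replicates falls in both. At 6 h, time in the experiment and hour of the day cannot be told apart. The paper holds circadian rhythm and damage from sampling to be likely sources of changes in control leaves, which was not tested here.

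**Figure D5:**
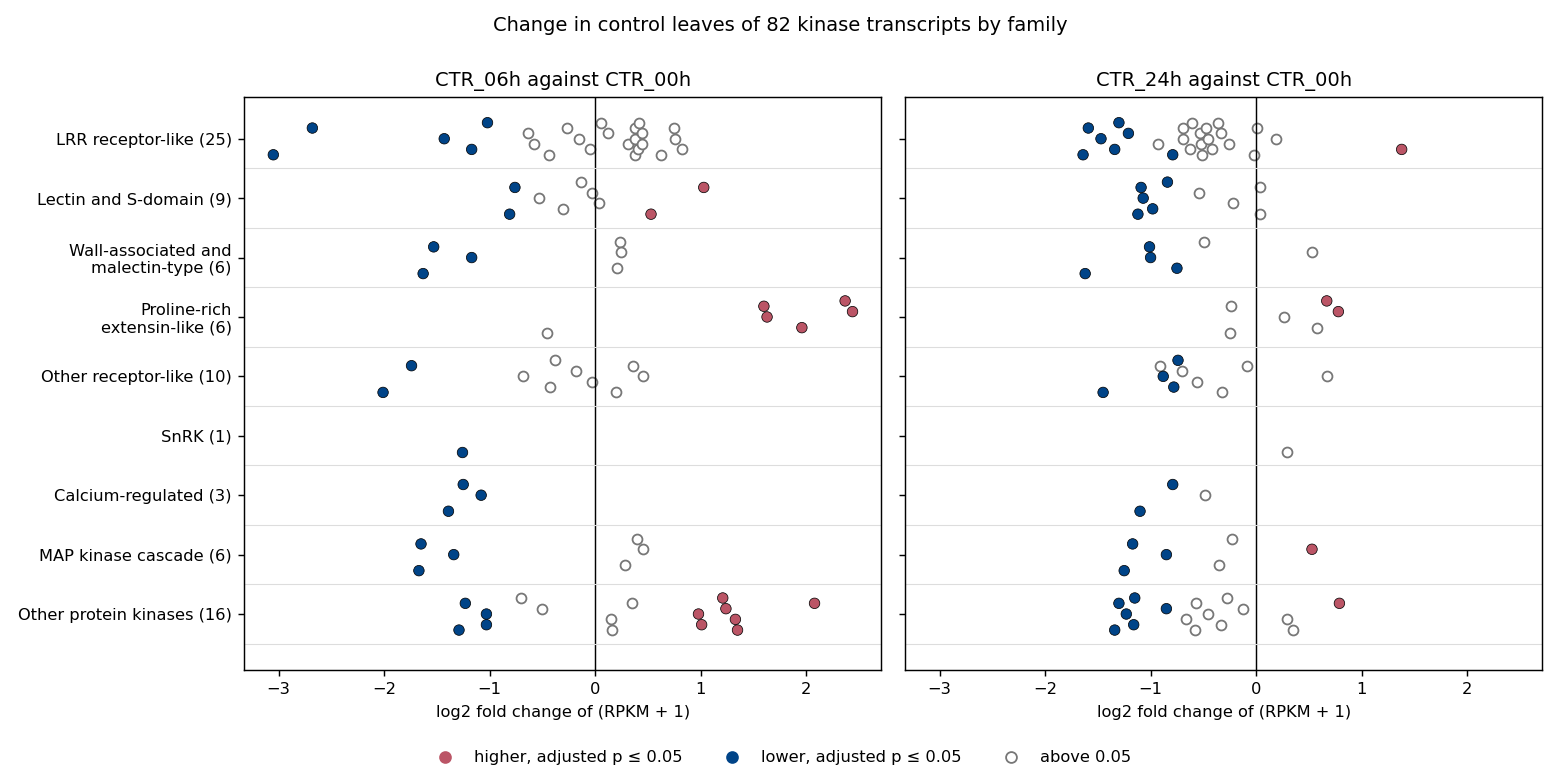
Log2 fold change of (RPKM + 1) of the 82 tested kinases in CTR_06h against CTR_00h leaves (left) and CTR_24h against CTR_00h leaves (right), 1 point per transcript, with families in rows and the number tested in brackets. Filled points passed an adjusted p of 0.05, 5 of the 6 PERK transcripts are higher at 6 h, and 31 of the 36 filled points at 24 h lie left of 0.

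In the PERK family 5 of 6 transcripts were higher in CTR_06h than in CTR_00h leaves, beside 29.0% of all tested transcripts, and 3 of the 5 belong to 1 component. The perk9-like transcript comp13272_c0_seq1 had 62.8, 49.9 and 51.3 RPKM in CTR_06h leaves, against 7.41, 8.69 and 12.1 RPKM in CTR_00h leaves (log2 fold change 2.44 ± 0.24, adjusted p = 6.67e-07). Its sisters comp13272_c0_seq3 and comp13272_c0_seq2 had log2 fold changes of 2.37 ± 0.24 (adjusted p = 8.63e-07) and 1.96 ± 0.24 (adjusted p = 6.96e-06). STR_06h leaves were high as well, with 37.0, 49.5 and 47 RPKM of comp13272_c0_seq1, a difference of -0.29 from CTR_06h leaves on the log2 scale (95% interval -0.80 to 0.21). By 24 h the same transcript stood at 21, 27.1 and 17.5 RPKM in STR_24h leaves, against 14.7, 12.6 and 18.9 RPKM in CTR_24h leaves. A second perk9-like component (comp16294_c0_seq4) and the perk1-like comp24140_c0_seq3 had log2 fold changes of 1.60 (adjusted p = 0.000148) and 1.63 (adjusted p = 0.000187) in CTR_06h leaves, while the abundant perk1-like comp13203_c0_seq1 had -0.46 (adjusted p = 0.273).

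The ht1-like kinases, named after a regulator of stomatal movement in response to carbon dioxide, differed among themselves. Both transcripts of component comp8592_c0 were higher in CTR_06h than in CTR_00h leaves, with log2 fold changes of 1.33 ± 0.24 (adjusted p = 0.000315) and 1.35 ± 0.24 (adjusted p = 0.000232), and comp23889_c0_seq1 was higher by 0.98 (adjusted p = 0.00814). The ht1-like comp25101_c0_seq1 was lower (log2 fold change -1.03 ± 0.27, adjusted p = 0.00418). None of these 4 passed in a salt comparison. The interacting protein comp9996_c0_seq1 was also higher, with 8.54, 6.82 and 4.21 RPKM in CTR_06h leaves, against 0.76, 0.755 and 0.66 RPKM in CTR_00h leaves (log2 fold change 2.08 ± 0.31, adjusted p = 5.11e-05).

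The 23 kinases lower in CTR_06h than in CTR_00h leaves were 5 LRR kinases, 2 lectin and S-domain kinases, 3 wall-associated and malectin-type kinases, 2 other receptor-like kinases, the srk2e-like kinase, 3 calcium-regulated kinases, 3 MAPK and 4 further protein kinases. The at1g68400-like transcripts comp14717_c0_seq2 and comp14717_c0_seq1 had the lowest log2 fold changes, -3.05 ± 0.45 (adjusted p = 4.39e-05) and -2.68 ± 0.33 (adjusted p = 8.07e-06). The tmk1-like transcripts of component comp25060_c0, named after an auxin-linked receptor kinase, were both lower. The transcript comp25060_c0_seq1 had 4.04, 2.72 and 2.21 RPKM in CTR_06h leaves, against 17.0, 14.5 and 13.1 RPKM in CTR_00h leaves (log2 fold change -2.01 ± 0.26, adjusted p = 1.02e-05), and comp25060_c0_seq2 a log2 fold change of -1.74 ± 0.29 (adjusted p = 0.000122). The theseus 1-like comp13970_c0_seq1 (-1.63, adjusted p = 0.0014), the herk 1-like comp20840_c0_seq1 (-1.53, adjusted p = 0.00066) and the brassinosteroid receptor relative bri1-like 2-like comp10349_c0_seq1 (-1.43, adjusted p = 0.00126) fell with them. All 3 calcium-regulated kinases were lower (all tested transcripts 28.1%), with log2 fold changes of -1.39 to -1.08, and 2 of them belong to component comp18123_c0. The call of comp9456_c0_seq1 was lost without CTR_00h replicate 1 or CTR_06h replicate 1 or 3 (adjusted p up to 0.0745). The transcript comp18123_c0_seq1 (-1.08) entered the test only through CTR_00h leaves, where it was high, so its call is bound to this choice. All 3 mitogen-activated protein kinase 9-like transcripts were lower as well, those of comp24929_c0 by -1.65 and -1.67 and comp24300_c0_seq4 by -1.34.

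Of the 37 kinases called in CTR_06h leaves, 17 were lower in both CTR_06h and CTR_24h leaves than in CTR_00h leaves, and 10 were higher in CTR_06h leaves without a call at 24 h. The 3 transcripts of the at5g15730-like component comp26046_c0 were lower in CTR_24h than in CTR_00h leaves, with log2 fold changes of -1.64 to -1.21. Its transcript comp26046_c0_seq7 had 0, 1.58 and 0.17 RPKM in CTR_24h leaves, against 4.41, 3.33 and 2.92 RPKM in CTR_00h leaves (log2 fold change -1.64 ± 0.32, adjusted p = 0.00139). The kinases together summed to 325 to 335 RPKM in STR_24h leaves, against 301 to 424 RPKM in CTR_24h leaves. These ranges overlap through CTR_24h replicate 3 alone, at 301 RPKM, while replicates 1 and 2 had 417 and 424 RPKM. At 6 h the kinases summed to 368 to 413 RPKM in STR_06h leaves, against 426 to 494 RPKM in CTR_06h leaves, which do not overlap. CTR_00h leaves had the highest sums, 511 to 567 RPKM. The sums over all 4767 transcripts differed between groups as well. They were 217496 to 270347 RPKM in STR_06h leaves, against 154450 to 208690 RPKM in CTR_06h leaves. At 24 h they were 154426 to 173539 RPKM in STR_24h leaves, against 207177 to 234957 RPKM in CTR_24h leaves. CTR_00h leaves had 142850 to 155157 RPKM.

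Some comparisons of the kinases ran beside changes in markers of dividing cells. Of 15 transcripts of that list (cyclins, cyclin-dependent kinases, kinesins and replication licensing factors), 12 were lower in CTR_24h than in CTR_00h leaves and none higher (all tested transcripts 22.1% lower), and in STR_06h against CTR_06h leaves 6 were lower and 1 higher (17.2% lower). Many of these transcripts share a component and so reads. The 12 include every listed transcript of the kinesin heavy component comp22468_c0. The 6 come from the mcm4-like comp25231_c0, the mcm2-like comp9318_c0 and the cyclin a2 comp25876_c0. In CTR_06h against CTR_00h leaves 4 of the 15 markers were higher and 1 lower (all tested transcripts 29.0% and 28.1%), against the kinases' 14 higher and 23 lower. The 4 come from comp25231_c0 and comp9318_c0. The marker sums were 55.9 to 79.4 RPKM in CTR_06h leaves, against 58.5 to 66.9 RPKM in CTR_00h leaves. Their summed level was 21.9 to 30.8 RPKM in CTR_24h leaves, against 58.5 to 66.9 RPKM in CTR_00h leaves, and 29.2 to 35.3 RPKM in STR_06h leaves, against 55.9 to 79.4 RPKM in CTR_06h leaves. At 24 h the salt and control ranges overlapped, at 24.6 to 28.1 RPKM in STR_24h leaves and 21.9 to 30.8 RPKM in CTR_24h leaves. None of the 15 was at 0 in all replicates of any group, and their part in the kinase results was not tested. The 6 mesophyll markers, photosystem and chlorophyll-binding transcripts among them, were present in every group, and of the 5 tested 1 was higher and 2 lower in STR_24h than in CTR_24h leaves. Their sums, 1190 to 1290 RPKM in STR_24h leaves, against 3530 to 4900 RPKM in CTR_24h leaves, rest almost wholly on the chlorophyll a-b binding transcript comp25306_c0_seq3 (1180, 1200 and 1260 RPKM in STR_24h leaves). The member called higher was the nectarin-3-like transcript comp7212_c0_seq1 (log2 fold change 1.44, adjusted p = 0.00382). Of the 4 xylem and lignin markers 1 was lower at each hour of salt, with sums of 24.6 to 27.3 RPKM in STR_06h leaves, against 34.2 to 53.5 RPKM in CTR_06h leaves. Neither of the 2 petal pigment transcripts was called with salt.

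Partners of the kinases were counted by their descriptions. Of 31 protein phosphatase transcripts tested, which remove the phosphates that kinases add, 8 were higher and 5 lower in STR_06h than in CTR_06h leaves (all tested transcripts 17.3% and 17.2%), and 3 higher and 6 lower in STR_24h than in CTR_24h leaves (24.2% and 22.3%). The 8 come from 2 components, 5 from the protein phosphatase 2C 63-like comp25573_c0 and 3 from the protein phosphatase 2C 8-like comp21321_c1. The 3 higher at 24 h are those of comp21321_c1. Its transcript comp21321_c1_seq2 had 21.7, 25.7 and 16.5 RPKM in STR_24h leaves, against 1.94, 3.25 and 1.88 RPKM in CTR_24h leaves (log2 fold change 2.73, adjusted p = 2.92e-05), and 5.97, 6.34 and 10.3 RPKM in STR_06h leaves, against 0.79, 0.87 and 1.86 RPKM in CTR_06h leaves. The list of calcium sensors also holds transcripts described as calmodulin binding, which are not sensors by that name. Among its 7 transcripts tested, 2 were higher at 6 h (all tested transcripts 17.3%) and 2 lower at 24 h (22.3%). The higher ones include a calmodulin-binding protein. Those lower were the cml44-like comp12538_c0_seq2 (log2 fold change -1.48, adjusted p = 0.00103) and calmodulin-like protein 8 (-1.0, adjusted p = 0.0248). The 14-3-3 protein comp18299_c0_seq1, of a family that binds phosphorylated proteins, had 3.84, 7.09 and 7.39 RPKM in STR_24h leaves, against 15.1, 19.7 and 19.1 RPKM in CTR_24h leaves (log2 fold change -1.45, adjusted p = 0.00259). The list of kinases outside the rule held 4 transcripts, among them histidine kinase 1-like and phytosulfokine receptor 2-like, and none had a salt call. That list was not complete, since cyclin-dependent kinases were counted with the dividing cells. Of those, the cyclin-dependent kinase f-1 transcript comp24659_c0_seq1 was higher in STR_06h leaves (log2 fold change 0.64, adjusted p = 0.0359). The cyclin-dependent kinase comp13852_c0_seq2 was lower in STR_24h leaves (log2 fold change -1.21, adjusted p = 0.00213).

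The replicates of a group correlated at 0.934 to 0.972 on average over all tested transcripts, and none stood apart by this measure. The kinase sum of CTR_24h replicate 3 lay well below those of the other CTR_24h replicates, in large part through the perk1-like comp13203_c0_seq1. Of the 15 replicates, 13 had 2 libraries, and CTR_06h replicate 2 and STR_24h replicate 2 had 1 each. The labels also name 3 samples of salt at 0 h, which were not used here, and 6 CTR_06h and 5 STR_24h samples where the table has 5 and 6 columns. A STR_24h column, the non-HPLC library of replicate 2, was left out to keep within the labels. The paper, however, lists reads for all its STR_24h libraries and names only a non-HPLC CTR_06h library as failed, as the columns have it.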

How the data were processed

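Leaf poly(A) RNA was sequenced by the authors as strand-specific libraries, with an HPLC and a non-HPLC index primer for each RNA. They mapped the reads to a Trinity assembly, estimated expression with RSEM and deposited RPKM values per library and transcript, with Blast2GO descriptions. The selection of the 4767 transcripts, and any further scaling of the RPKM, are not given in the sources used here. RPKM are not counts, so no count test was run, and the reads behind a value are not known. From 11 to 34 low transcripts per library, the step of 1 read differed between libraries by up to 2.84 times, a rough estimate used in no test. Precision rests on 3 replicates per group, and p-values measure the spread between pools of plants. Of 29 columns, 28 were used and 1 left out.

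Libraries of a replicate were averaged, and a transcript was kept where 3 or more replicates reached an RPKM of 1 (4658 kept, 109 left out). Values of log2(RPKM + 1) from all 5 groups entered 1 limma fit (limma 3.58.1, R 4.3.3, trended prior), with Benjamini-Hochberg adjustment over the 4658. "Called" or "passed" means an adjusted p of 0.05 or less. Fold changes on this scale understate the changes of low transcripts. Errors after ± are moderated standard errors, intervals are 95%, and ratios compare group means of RPKM. The fit was tested on simulated data. Tables and figures were made with Python 3.11.15, pandas 2.3.3, numpy 2.4.6 and matplotlib 3.10.9.

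The members, families and lists were chosen with earlier results of these data known. By rule, the text names up to 8 higher and 8 lower transcripts by adjusted p in each salt comparison, up to 4 each way for the change of the salt effect and for CTR_06h against CTR_00h, the 5 most abundant, and up to 2 per list. Components with 2 or more members were also to be named, but only some of them are. The lists were dividing cells, guard cells, mesophyll, xylem and lignin, petal pigment, phosphatases, calcium sensors with calmodulin-binding proteins, 14-3-3 proteins and kinases outside the rule. Those for epidermis, phloem, ROP and abscisic acid receptors found no transcript. Further members are named for their family, after their values were seen. Alternatives were a pseudocount of 0.1, no filter, the replicate number or, chosen after seeing the data, the pools of plants as a block, each primer set alone, each library as its own sample, only the groups compared, the same median in every replicate, stricter limits, sums per component and leaving out each replicate.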

Additional observations from a re-analysis of the deposited data

Results flagged for a closer look

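For 16 kinase transcripts the effect of salt at 24 h differed from that at 6 h by the test of the difference itself (24 h minus 6 h on the log2 scale, adjusted p of 0.05 or less). The effect was lower at 24 h for the erl1-like comp15842_c0_seq2 (-1.80), the srk2e-like comp14103_c0_seq1 (-1.72), the perk1-like comp13203_c0_seq1 (-1.62), the at5g20050-like comp18539_c0_seq2 (-1.52) and both transcripts of the at5g15730-like component comp18694_c0 (-1.33 for seq2 and -1.15 for seq1). It was higher at 24 h for the protein kinase domain transcript comp21936_c1_seq1 (2.06), the p21-activated protein kinase-interacting protein 1-like comp9996_c0_seq1 (1.90), the at1g68400-like comp14717_c0_seq1 (1.48) and both b120-like transcripts of comp18591_c0 (1.34 for seq2 and 1.24 for seq1). It was also higher for the mitogen-activated protein kinase kinase 6-like comp21793_c0_seq3 (1.24), the at4g27290-like comp8075_c0_seq1 (1.22), both nek5-like transcripts of comp25769_c0 (1.07 for seq3 and 1.01 for seq1, the second with an adjusted p of 0.0625 with pools of plants as a block) and the mitogen-activated protein kinase 9-like comp24929_c0_seq3 (0.82, adjusted p = 0.0702 with that block). Of the 16 differences, 10 passed when each replicate was left out in turn, those of comp13203_c0_seq1, comp18694_c0_seq1, comp14717_c0_seq1, comp25769_c0_seq1, comp25769_c0_seq3 and comp24929_c0_seq3 did not, and 2, those of the srk2e-like transcript and of the b120-like comp18591_c0_seq1, passed in every alternative tried. The b120-like transcripts met the minimum for testing only through STR_24h leaves.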

How the results depend on the processing

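In the HPLC libraries alone 13 kinases were called at 6 h and 13 at 24 h, and in the non-HPLC libraries alone 5 at 6 h, 15 at 24 h and 3 for the change of the salt effect. Each primer set has 1 library per replicate. The non-HPLC set lacks 2 replicates, CTR_06h replicate 2 and STR_24h replicate 2, the latter through the column left out. At an adjusted p of 0.001 and a log2 change of 1 in size the counts were 1 at 6 h, 6 at 24 h, 1 for the change of the salt effect, 18 in CTR_06h and 4 in CTR_24h against CTR_00h leaves. Leaving out each replicate gave 13 to 19 calls at 6 h, lowest without CTR_06h replicate 2, 18 to 27 at 24 h, 10 to 17 for the change of the salt effect, also lowest without CTR_06h replicate 2, 36 to 39 in CTR_06h and 26 to 34 in CTR_24h against CTR_00h leaves. The other alternatives kept each of the 5 counts within 1.5 times.

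The replicate numbers did not pair salt with control leaves, since same-numbered replicates correlated at -0.0922 to 0.112 at 6 h and at -0.225 to -0.0272 at 24 h in their deviations from the group means. Between times of the control leaves these correlations were 0.0375 to 0.288 (CTR_06h and CTR_00h) and 0.0297 to 0.144 (CTR_24h and CTR_00h), and the study pooled leaves from set groups of plants within a treatment. With the replicate number as a block the counts were 19 at 6 h, 26 at 24 h, 14 for the change of the salt effect, 37 and 36 for the control comparisons. With the plant pools of each treatment as a block, an alternative chosen after seeing the data, they were 14 for the change of the salt effect, 39 and 36 for the control comparisons. It ended the calls of comp25769_c0_seq1 (adjusted p = 0.0625) and comp24929_c0_seq3 (adjusted p = 0.0702) for the change of the salt effect and of comp24929_c0_seq2 in CTR_24h leaves (0.0539), and no other.

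Of 756 log2 fold changes of named members under alternatives, 695 kept their direction and side of the threshold, 55 lost and 5 gained a call, and 1 turned. It was that of the at4g26540-like comp10042_c0_seq1 at 6 h, 0.31 in the non-HPLC libraries (adjusted p = 0.619). Of the calls, 10 of 20 at 6 h, 14 of 25 at 24 h, 33 of 37 in CTR_06h and 21 of 36 in CTR_24h leaves held without each replicate in turn. Most kinases lie below 5 RPKM, where few reads and the added 1 limit what can be seen.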
